A study of Mus musculus with 72 samples.

Results

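The clock of the interfollicular epidermis, the part of the skin surface between hair follicles, was compared at time point 2 between WT mice and mice in which Bmal1 (gene symbol Arntl) was restored in the epidermis. The members are 8 RNA-seq libraries of 72, 4 rescue animals and 4 WT animals, taken by their genotype and time point labels with all genes. Rescue (RE) animals are labelled Bmal1-stopFL/K14-Cre, WT animals K14-Cre, and the KO animals whose values stand beside them Bmal1-stopFL, so that RE and KO share the stop allele and RE and WT share the Cre transgene. All were C57BL/6 females of 8 weeks, moved from a cycle of light and dark to constant darkness (DD) and killed after 156 to 176 h of it in all. The labels number 6 time points and give no hour for any of them. The question in the series' design text is what rhythm the epidermis keeps with and without clocks outside it. Back skin was freed of hypodermis and floated on dispase, and the loosened epidermis was filtered and frozen as cell pellets. Keratin 14 is the keratin of basal keratinocytes, so a K14 promoter drives Cre in keratinocytes and not in the immune cells and pigment cells that live among them.

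BMAL1 and CLOCK are transcription factors that pair and bind E-boxes in the promoters of the Per and Cry genes, whose proteins then block the pair. A further loop runs through the REV-ERB repressors (Nr1d1, Nr1d2) and the ROR activators, which compete for ROR elements in Arntl, Npas2, Clock, Cry1 and Nfil3. A last loop runs through the D-box factors DBP, TEF and HLF and their competitor NFIL3. In skin these loops are known to time cell division, DNA repair and the exposure of stem cells to differentiation signals.

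Promoters of 3 clock genes are shown, because Cry1 was the clock gene called different between RE and WT, Per3 carries the D-boxes, and Ciart carries the most E-boxes of the clock genes matched. Each is the 250 bases before the first RefSeq start site on GRCm38.p6, read 5′ to 3′ on the gene's strand, with matches in capitals. They lie on the minus strand at chr10:85185055-85185304 (Cry1), chr4:151044666-151044915 (Per3) and chr3:95882229-95882478 (Ciart).
Cry1: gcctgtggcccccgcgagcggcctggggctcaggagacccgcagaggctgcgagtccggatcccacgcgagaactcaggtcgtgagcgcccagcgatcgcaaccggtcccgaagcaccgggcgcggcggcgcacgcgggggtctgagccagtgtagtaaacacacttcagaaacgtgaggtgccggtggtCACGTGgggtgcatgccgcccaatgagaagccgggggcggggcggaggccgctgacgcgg
Per3: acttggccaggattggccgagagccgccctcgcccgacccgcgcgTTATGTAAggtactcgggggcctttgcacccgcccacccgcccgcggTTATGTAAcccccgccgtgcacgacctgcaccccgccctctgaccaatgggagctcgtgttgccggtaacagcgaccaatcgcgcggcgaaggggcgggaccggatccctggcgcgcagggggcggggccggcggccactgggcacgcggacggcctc
Ciart: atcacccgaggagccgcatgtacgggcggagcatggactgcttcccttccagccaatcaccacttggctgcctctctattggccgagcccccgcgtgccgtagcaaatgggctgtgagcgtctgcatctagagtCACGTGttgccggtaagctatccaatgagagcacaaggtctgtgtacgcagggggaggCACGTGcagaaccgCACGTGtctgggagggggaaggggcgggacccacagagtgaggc
The letters searched on both strands were the E-box CACGTG, the D-boxes TTATGTAA and TTACGTAA, and the ROR element, and no match overlapped one of another kind in the clock genes. The Cry1 window held an E-box 60 to 55 bases before the start. The Ciart window held E-boxes 116 to 111, 58 to 53 and 44 to 39 bases before the start. The Per3 window held D-boxes at 205 to 198 and 158 to 151 bases. Of 18538 genes tested, 11879 had a promoter in the RefSeq table, and 9.34% of these held an E-box, 0.774% a D-box and 0.219% a ROR element. Of 20 clock genes tested, 17 had a promoter and 5 held an E-box: Per1, Cry1, Tef, Bhlhe41 and Ciart. None of the 17 held a ROR element, and Nr1d1, Dbp, Arntl and Clock held no match of any kind.

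The 8 libraries held 27.4 to 43.4 M counted reads (24.5 to 95.03 M over all 72), and values are given as CPM, read counts scaled to a common library size with TMM factors. The share of reads from mitochondrial genes was 2.22 to 2.51% in WT and 2.55 to 2.88% in RE. Keratinocyte markers (Krt5, Krt14, Krt1, Krt10 and others) summed to 40900 to 44600 CPM in WT and 38100 to 48100 CPM in RE. Langerhans cell markers summed to 396 to 617 and 357 to 569 CPM, those of dendritic epidermal T cells to 136 to 147 and 118 to 196 CPM, and those of melanocytes to 24.2 to 35.8 and 22.2 to 37.1 CPM. Fibroblast markers, which a clean epidermal sheet lacks, summed to 30.7 to 71.3 CPM in WT and 47.7 to 110 CPM in RE. Merkel cell markers summed to 0.699 to 1.15 CPM in WT and 0.791 to 2.23 CPM in RE. Of these 6 genes, 3 (Krt20, Atoh1, Sox2) were under 0.1 CPM. Inner root sheath and hair shaft markers summed to 12.3 to 44.1 CPM in WT and 13.5 to 42.4 CPM in RE. Sebaceous gland markers summed to 52.5 to 156 CPM in WT and 77.6 to 179 CPM in RE. In such bulk samples, fewer cells of a type and less RNA per cell cannot be told apart.

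RE animal 4 stood apart from the other 3 RE animals on clock genes, in a count made after the values were seen. It lay inside the WT range for 14 of 20 clock genes, against 5, 9 and 10 for RE animals 1 to 3, while over all genes the shares for animals 1 to 4 were 41.9, 47.1, 52.3 and 46.9%. Its median distance from the WT mean over clock genes was 0.19 on the log2 scale, against 0.50, 0.59 and 0.52. It also had the highest Col1a1, a collagen of dermal fibroblasts, at 21.2 CPM against 1.86 to 5.48 CPM in RE animals 1 to 3 and 1.45 to 7.80 CPM in WT. Results for Arntl, Cry1, Nr1d1, Dbp and Ciart are given with and without this animal, and the part of dermal RNA in its values was not tested. The animal was singled out on these same clock genes, so values without it are descriptions and lend no further support.

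Arntl, the gene restored in RE, was at 35.7, 50.3, 53.0 and 38.8 CPM in WT animals 1 to 4 and at 72.9, 66.5, 64.6 and 47.1 CPM in RE animals 1 to 4. KO animals were at 33.5, 30.1, 30.2 and 31.8 CPM. Every RE animal lay above every KO animal, and 3 of the 4 lay above every WT animal. The gene, at chr7:113207465-113314126 on the plus strand, was higher in RE than in KO by 1.00 ± 0.16 on the log2 scale (4 animals a group, edgeR quasi-likelihood test, adjusted p = 1.36e-04). Here and below, ± on a log2 difference is the SE from the fit to all 72 libraries. That SE and the 95% intervals pool the spread over all groups, so they do not measure the spread of the animals compared. Against WT the difference was 0.50 ± 0.16 (95% interval 0.17 to 0.82, adjusted p = 0.431), which did not pass the test, and without RE animal 4 it was 0.61 (adjusted p = 0.285). The labels do not say where in the gene the stop lies, so a count over the whole gene does not measure the full-length transcript. In WT, Arntl was high at time points 1 and 6 (means 96.1 and 83.6 CPM) and low at 3 and 4 (22.8 and 25.5 CPM), and WT at time point 2, with 44.5 CPM, lay between them. RE means ran from 53.5 to 64.3 CPM over the 6 time points.

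**Figure D1:**
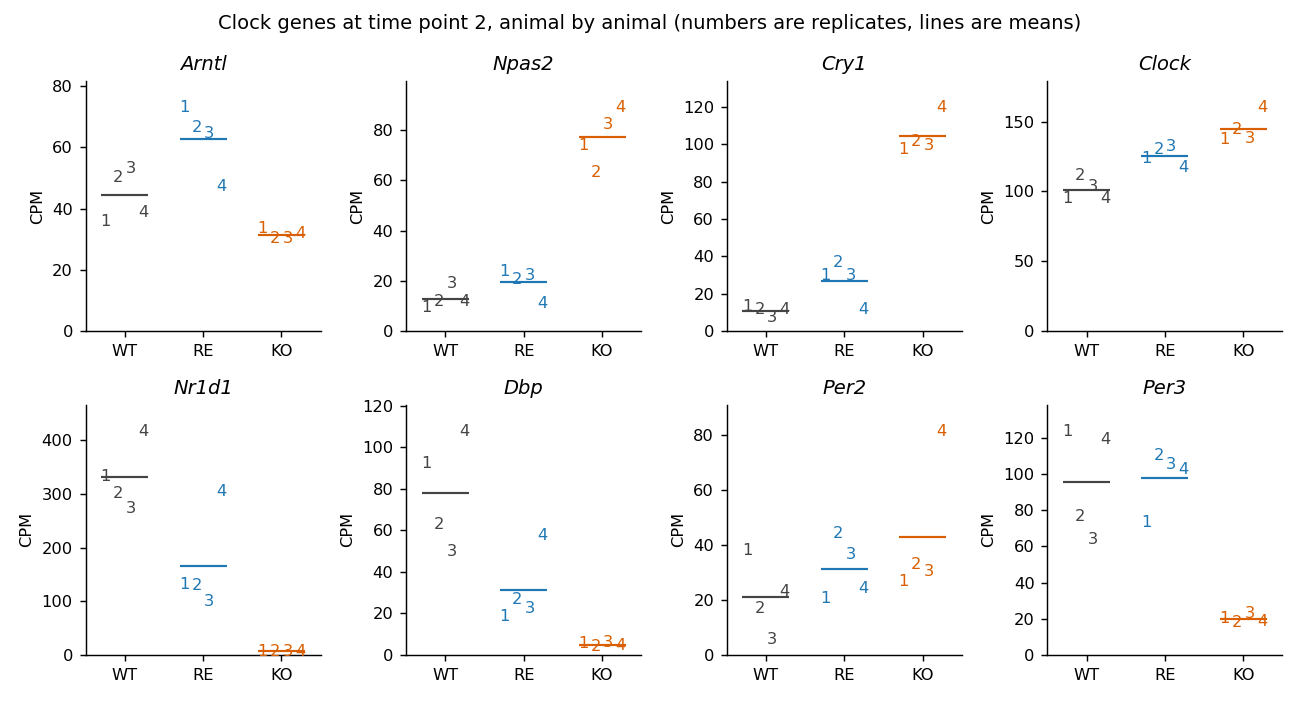
CPM of 8 clock genes in each animal at time point 2, for WT, RE and KO, with lines at the group means. RE animals 1 to 3 lie between WT and KO for Cry1, Nr1d1 and Dbp, and RE animal 4 lies within the WT range for these genes (11.7, 304 and 57.6 CPM).

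Few genes were called between RE and WT at this time. Of 18538 genes, 12 were called at an adjusted p under 0.05 (0.0647% of genes), 1 higher in RE (0.00539%) and 11 lower (0.0593%). An unadjusted p under 0.05 was met by 1382 genes (7.45%), 736 higher (3.97%) and 646 lower (3.48%). The 4 RE and the 4 WT values did not overlap in 1673 genes (9.02%), 809 higher in RE (4.36%) and 864 lower (4.66%). The gene that was higher was Cry1, a core clock repressor, and the 11 lower ones were 9 pseudogenes, 1 annotated miRNA gene and 1 protein-coding gene. Among 20 clock genes tested, 1 was called higher and 0 lower, and at an unadjusted p under 0.05 the counts were 4 higher (Arntl, Clock and Cry1 among them) and 2 lower (Nr1d1, Dbp). Rorb, a ROR gene best known from retina and brain, was too low to be tested.

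Cry1 encodes a cryptochrome, a main inhibitor of CLOCK and BMAL1. It was at 13.1, 11.8, 7.60 and 11.8 CPM in WT animals and at 29.7, 37.0, 29.6 and 11.7 CPM in RE animals. KO animals were at 97.2, 101, 99.1 and 120 CPM. RE animals 1 to 3 lay above all WT animals and below all KO animals, and RE animal 4 lay within the WT range. The SD of log2 CPM over the animals was 0.74 in RE and 0.35 in WT. The rise in RE over WT was 1.28 ± 0.22 on the log2 scale (95% interval 0.84 to 1.73, adjusted p = 0.00202), and in RE against KO the gene was lower by 1.95 (log2 difference -1.95 ± 0.22, adjusted p = 1.39e-08). Without RE animal 4 the rise was 1.53 (adjusted p = 9.46e-06). Without RE animal 2 it was 1.08 (adjusted p = 0.0707) and no longer called, and with the 8 libraries fitted alone it was 1.29 (adjusted p = 0.178). The gene lies at chr10:85131700-85185064 on the minus strand, behind the promoter printed above.

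Time point 2 was the low point of Cry1 in WT. WT means over time points 1 to 6 were 29.8, 11.1, 28.6, 44.0, 54.8 and 57.8 CPM. RE means were 27.5, 27.0, 34.2, 41.8, 33.9 and 36.3 CPM. The RE mean was also lowest at time point 2, at 27.0 CPM against 27.5 and 34.2 CPM at the neighbouring times, while in WT the neighbouring means were 29.8 and 28.6 CPM against 11.1 CPM. KO means stayed between 92.9 and 110 CPM. The RE minus WT difference at time point 2 exceeded the mean of the other 5 time points by 1.54 ± 0.24 on the log2 scale (adjusted p = 3.24e-04), the test of the difference itself. It was called without each of the 8 animals in turn and in every other setting run.

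**Figure D2:**
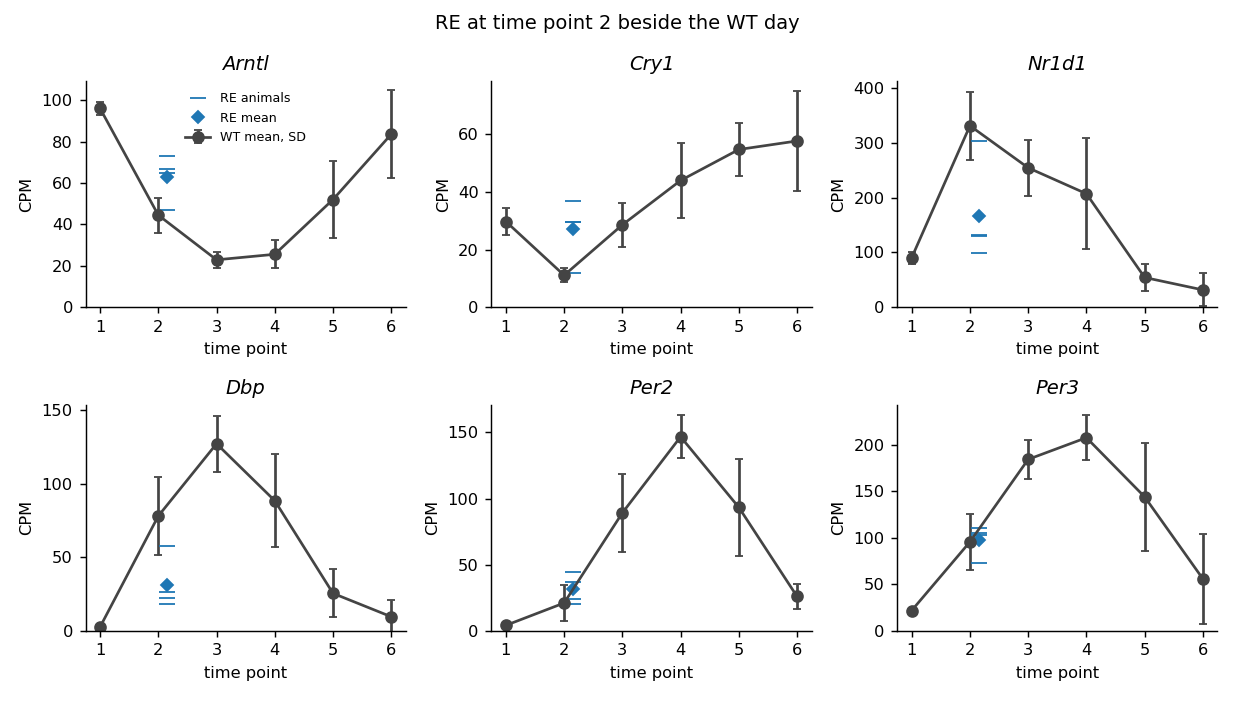
WT mean ± SD (4 animals) at the 6 time points for Arntl, Cry1, Nr1d1, Dbp, Per2 and Per3 in CPM, with the 4 RE animals of time point 2 and their mean. For Cry1 the RE mean of 27.0 CPM lies well above the WT mean of 11.1 CPM at the same time and near the WT mean of 28.6 CPM at time point 3.

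Among the activators besides Arntl, Clock, the partner of BMAL1, was at 94.97, 111, 103 and 94.96 CPM in WT and at 123, 130, 132 and 117 CPM in RE. All RE animals lay above all WT animals, and the difference of 0.31 ± 0.09 did not pass the test (adjusted p = 0.349). Npas2, which can stand in for CLOCK, was at 9.44, 11.95, 18.9 and 11.7 CPM in WT, at 23.9, 20.6, 22.3 and 11.1 CPM in RE, and at 63.1 to 88.8 CPM in KO. RE animal 4 alone lay within the WT range for it. Npas2 was lower in RE than in KO by a log2 difference of -1.99 ± 0.32 (adjusted p = 1.34e-04), and the difference from WT, 0.58 ± 0.32, was not called (adjusted p = 0.688). Arntl2, the paralog of Arntl, differed by -0.26 ± 0.15 from WT (adjusted p = 0.688).

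The Period genes encode the other inhibitors of the pair, and none was called between RE and WT. Per1, which also answers to stress and hormones, was at 311, 105, 206 and 345 CPM in WT and at 401, 125, 207 and 476 CPM in RE. Its spread within each group was wide, and the difference was 0.32 ± 0.43 (adjusted p = 0.902). Per2 was at 38.2, 16.9, 5.77 and 23.2 CPM in WT and at 20.45, 44.4, 36.6 and 24.2 CPM in RE, with a difference of 0.58 ± 0.46 (95% interval -0.34 to 1.49). Per3 was at 123, 76.2, 63.5 and 119 CPM in WT, at 73.1, 110, 105 and 102.5 CPM in RE and at 18.1 to 23.0 CPM in KO. RE and WT overlapped for Per3 (difference 0.03 ± 0.29, interval -0.54 to 0.61), and RE exceeded KO by 2.30 ± 0.30 (adjusted p = 9e-07). Cry2, the other cryptochrome, differed by -0.13 ± 0.16 from WT (interval -0.46 to 0.20).

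The REV-ERB genes are direct E-box targets, and with the ROR genes they set the level of Arntl. Nr1d1 was at 333, 301, 273 and 417 CPM in WT, at 131, 130, 99.2 and 304 CPM in RE, and at 6.03 to 6.78 CPM in KO. RE animals 1 to 3 lay well below all WT animals and far above all KO animals, while RE animal 4 lay in the WT range. The difference from WT was -0.995 ± 0.41 (interval -1.81 to -0.18, adjusted p = 0.573), and without RE animal 4 it was -1.47 (adjusted p = 0.41). RE exceeded KO by 4.69 ± 0.49 (adjusted p = 8.11e-10). Nr1d2 was at 218, 171, 183 and 251 CPM in WT and at 144, 161, 128 and 212 CPM in RE. Its difference from WT was -0.35 ± 0.25, and RE exceeded KO, at 18.05 to 27.0 CPM, by 2.89 ± 0.27 (adjusted p = 6.06e-11). Rora, a ROR gene active in skin, differed by 0.30 ± 0.23.

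Among the D-box factors, Dbp, a direct E-box target with a strong rhythm in most tissues, was at 92.1, 62.8, 49.7 and 108 CPM in WT and at 18.3, 26.5, 22.4 and 57.6 CPM in RE. KO animals were at 4.07 to 5.90 CPM. RE animals 1 to 3 lay below all WT animals, and RE animal 4 lay between WT animals 3 and 2. The difference from WT was -1.32 ± 0.42 (interval -2.17 to -0.47, adjusted p = 0.428), without RE animal 4 -1.80 (adjusted p = 0.229), and RE exceeded KO by 2.65 ± 0.46 (adjusted p = 3.62e-04). Tef differed by -0.17 ± 0.19 from WT and exceeded KO by 0.99 ± 0.20 (adjusted p = 0.00309). Hlf differed by -0.03 ± 0.20 from WT. Nfil3, which competes for D-boxes, was at 24.1, 8.21, 16.3 and 41.4 CPM in WT and at 79.6, 19.1, 26.6 and 44.6 CPM in RE, a difference of 0.91 ± 0.47 that was not called (adjusted p = 0.671).

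The E-box repressors DEC1 (Bhlhe40), DEC2 (Bhlhe41) and CHRONO (Ciart) were not called between RE and WT. Ciart was at 13.7, 7.02, 5.02 and 14.45 CPM in WT, at 8.65, 4.06, 5.91 and 15.6 CPM in RE and at 2.25 to 2.65 CPM in KO. RE overlapped WT (difference -0.23 ± 0.35) and every RE animal lay above every KO animal (1.78 ± 0.38, adjusted p = 0.00718). Without RE animal 4 the difference from WT was -0.70 and not called. The difference from KO was then 1.33 and not called (adjusted p = 0.18). Bhlhe41 was at 2.25 to 4.94 CPM in WT, at 2.20 to 2.30 CPM in RE animals 1 to 3, and at 3.40 CPM in RE animal 4. Bhlhe40 ran from 123 to 478 CPM in WT and from 154 to 450 CPM in RE.

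**Figure D3:**
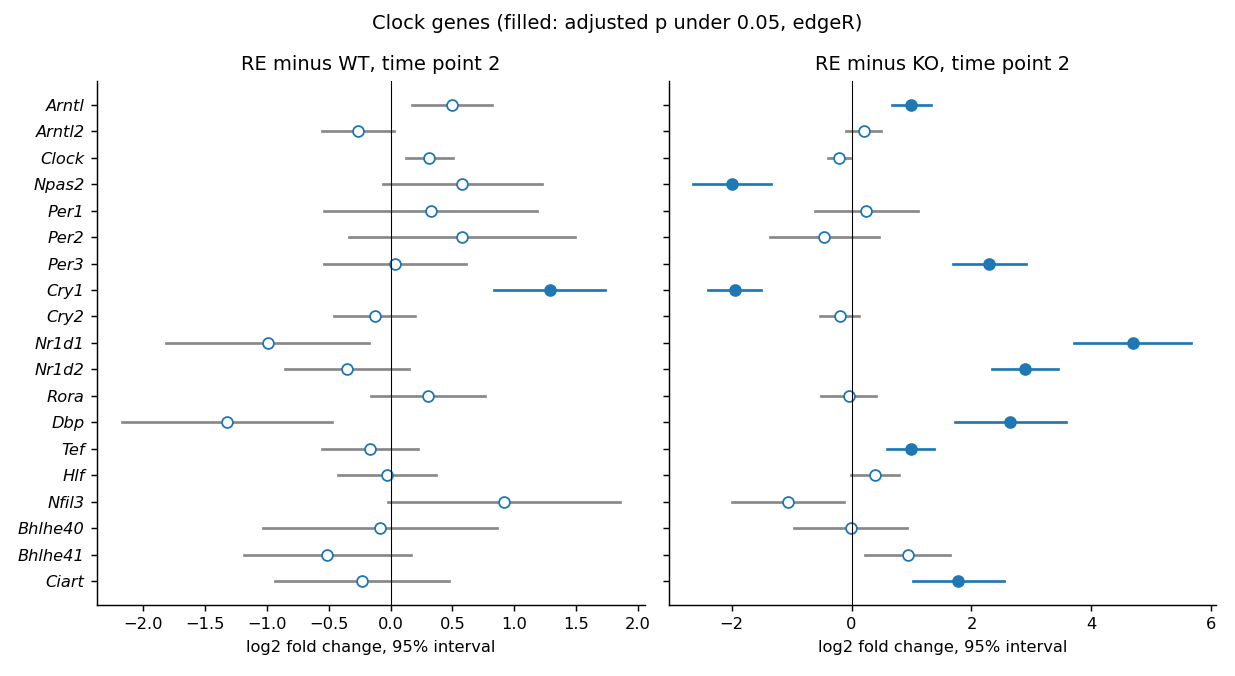
Log2 fold change with its 95% interval for clock genes, RE against WT and RE against KO at time point 2, where filled points have an adjusted p under 0.05. Against WT Cry1 alone is filled (1.28), and against KO Nr1d1 (4.69), Nr1d2 (2.89) and Dbp (2.65) lie farthest to the right.

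Set beside the WT day, the RE means at time point 2 were all inside the span of the 6 WT means, for 20 of 20 clock genes. The WT time point with the nearest mean was time point 5 for 7 genes (Arntl, Per1, Nr1d2, Rora, Dbp, Bhlhe41, Ciart) and time point 2 for 6 (Npas2, Per3, Cry2, Tef, Hlf, Bhlhe40). It was time point 3 for Cry1, time point 4 for Nr1d1 and Nfil3, time point 6 for Arntl2 and Per2, and time point 1 for Clock. For Dbp, the RE mean of 31.2 CPM lay between the WT means of 78.1 CPM at time point 2 and 25.5 CPM at time point 5. For Nr1d1, the RE mean of 166 CPM lay between 207 CPM at time point 4 and 90.2 CPM at time point 1. A rhythmic gene passes a middle level on both its rise and its fall, so the nearest mean does not settle a WT time. For Npas2 the WT means were 13.0 CPM at time point 2 and 12.85 CPM at time point 5. The 4 animals at 1 time give no phase. The SD over animals on the log2 scale was larger in RE than in WT for 10 of 20 clock genes, and for 11927 of all 18538 genes (64.3%). Without RE animal 4 it was larger for 5 of the 20, with fewer animals in RE than in WT. That animal was set apart by its values for these same genes, and no share over all genes was made without it. The lower count is therefore no result about spread.

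The 11 genes called lower in RE were mostly annotated pseudogenes, copies of other genes that arose from their RNA. They were 8 processed pseudogenes, 1 transcribed processed pseudogene, the annotated miRNA gene Gm26384 and the protein-coding gene Gm5426. In each of them every RE animal lay below every WT animal. Rps15a-ps4, a copy of the ribosomal protein gene Rps15a at chr4:132219988-132220489, was at 20.7, 17.0, 19.8 and 21.2 CPM in WT and at 12.4, 10.2, 11.7 and 13.4 CPM in RE. KO animals were at 12.2 to 14.2 CPM, alongside RE. Its difference from WT was -0.72 ± 0.10 (adjusted p = 8.31e-05). As a description over time points 1 to 6, RE means were 12.3, 11.9, 15.8, 18.9, 19.6 and 21 CPM. WT means were 18.5, 19.7, 23.8, 21.5, 16.2 and 19.5 CPM, so RE lay below WT at time points 1 to 4 and above it at 5 and 6. KO means of Rps15a-ps4 lay below WT at time points 1 to 3 and above it at 4 to 6, with 15 CPM at time point 3 and 23 CPM at time point 4. Its parent gene Rps15a, with RE at 15.3 to 24.7 CPM and WT at 16.7 to 22.4 CPM, differed by 0.15 ± 0.14 (adjusted p = 0.854). Such copies share sequence with their parents, and the sources used here do not say how reads with several places in the genome were counted, so their values are uncertain as measures of a single locus.

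The other copies of ribosomal protein genes differed less. Rpl34-ps2 was lower by a log2 difference of -0.62 ± 0.13 (adjusted p = 0.0241), and its parent Rpl34 differed by -0.32 ± 0.10 with no overlap between groups (adjusted p = 0.349). Rpl39-ps, the most abundant of the 11 at 245 to 285 CPM in WT and 166 to 219 CPM in RE, was lower by -0.46 ± 0.09 (adjusted p = 0.00618). Rpl31-ps14 was lower by -0.42 ± 0.09 (adjusted p = 0.0364). Of the 8 runs that left out 1 animal, Rpl39-ps was called in 6, Rpl34-ps2 in 2 and Rpl31-ps14 in 1. Of 96 tested pseudogenes named for ribosomal proteins, 5 were called lower and 0 higher, with a median of -0.13 against 0.00 over all genes.

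The remaining lower genes carried no ribosomal name. Gm2871, a processed pseudogene, was at 1.76 to 2.23 CPM in WT and 0.755 to 1.203 CPM in RE (log2 difference -1.02 ± 0.17, adjusted p = 0.00197). Gm12013, at chr11:17095490-17095644, was at 18.5, 17.8, 18.7 and 19.4 CPM in WT and at 12.8, 9.97, 12.1 and 10.8 CPM in RE (-0.70 ± 0.13, adjusted p = 0.00351). Gm26384 was at 4.74 to 5.72 CPM in WT and 2.20 to 3.20 CPM in RE (-0.86 ± 0.19, adjusted p = 0.0364). Gm2871, Gm12013 and Gm26384 had lower RE means than WT at all 6 time points, as did Rpl34-ps2 among the ribosomal copies named above. KO means of the same genes were also lower than WT at all 6 time points. Gm6177, Gm5093 and Gm5426 were lower by -0.64 ± 0.13, -0.50 ± 0.10 and -0.84 ± 0.18 (adjusted p = 0.0128, 0.0217 and 0.0364). With 1 of the 8 animals left out, Gm6177 was called in 4 runs, Gm5093 in 3, Gm26384 in 2 and Gm5426 in 1. KO and RE ranges overlapped for each of the 11 except Rpl31-ps14, and no RE minus KO difference among them was called. KO against WT at time point 2 (edgeR, 3.31% of all genes called) was itself called lower for Rps15a-ps4 (adjusted p = 1.07e-04), Gm26384 (5.68e-04) and Gm12013 (0.00316). It was also called lower for Gm2871 (0.00839), Gm6177 (0.0249) and Rpl34-ps2 (0.0338), and not for the others of the 11.

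**Figure D4:**
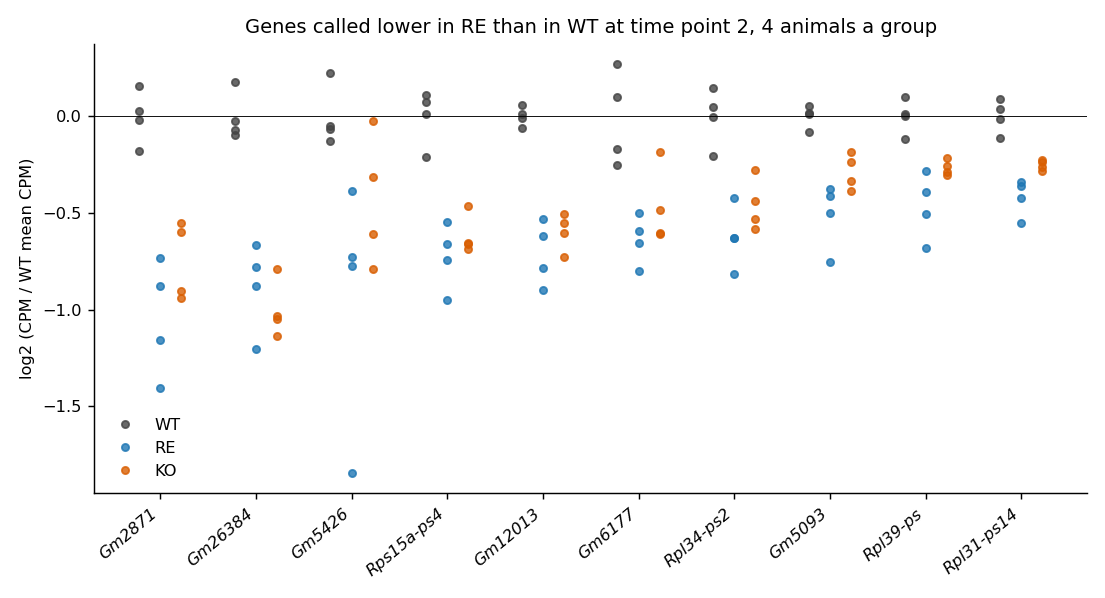
Genes called lower in RE than in WT, as log2 of each animal's CPM over the WT mean, for WT, RE and KO at time point 2. All RE points lie below all WT points of the same gene, and the KO points overlap the RE range except in Rpl31-ps14.

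The 77 tested cytosolic ribosomal protein genes, which build the translating ribosome, had a median of -0.15 on the log2 scale, and 72 of them were below 0. None was called, 19 were lower and 1 higher at an unadjusted p under 0.05, and in 30 the RE animals all lay below the WT animals. Over all genes 3.48% were lower and 3.97% higher at that p, and 4.66% did not overlap with RE lower. Rpl36 was at 138, 130, 146 and 148 CPM in WT and at 107, 85.6, 101 and 110 CPM in RE (-0.47 ± 0.11, adjusted p = 0.115). Rps12 (-0.43 ± 0.12) and Rps27 (-0.42 ± 0.12) came next among those chosen after their values were seen. RE animal 2 was the lowest RE animal for each of these 3 genes. At the 6 time points the list's median RE minus WT difference was 0.10, -0.15, -0.11, 0.02, 0.10 and -0.01, and that of KO minus WT was 0.20, -0.06, -0.19, 0.00, 0.14 and 0.08.

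No gene of the keratinocyte programmes was called between RE and WT. The basal layer list had a median of 0.00 over 15 genes, and the suprabasal and cornified list one of 0.02 over 24 genes, with none called. Krt14 differed by -0.01 ± 0.29 and Krt10 by -0.04 ± 0.21. Trp63, the regulator of the epidermal lineage, was at 917 to 935 CPM in WT and at 981 to 1141 CPM in RE (0.21 ± 0.13, adjusted p = 0.727). Dsp, which anchors keratin at desmosomes, likewise did not overlap (0.11 ± 0.13, adjusted p = 0.881). NOTCH pathway genes had a median of 0.05, and DNA repair genes one of 0.04.

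Genes of cell division stood on the higher side without passing the test. All 32 genes of G2 and mitosis were above 0, from 0.07 to 0.72, with a median of 0.45, and none was called or met an unadjusted p under 0.05. Top2a, which untangles DNA before division, was at 85.4, 99.0, 77.7 and 59.6 CPM in WT and at 178, 90.4, 165 and 93.1 CPM in RE. RE animals 1 and 3 were high, and RE animals 2 and 4 lay in or near the WT range (0.71 ± 0.36, adjusted p = 0.671). Mki67, the proliferation marker, was likewise highest in RE animals 1 and 3, with 281, 132, 240 and 170 CPM in RE and 103 to 162 CPM in WT. DNA replication and S phase genes had a median of 0.20 over 30 genes, with 2 higher at an unadjusted p under 0.05, E2f8 (0.59 ± 0.23) and Rrm2 (0.47 ± 0.22), where 3.97% of all genes were higher at that p. Over the 6 time points the median RE minus WT difference of mean log2 CPM for the mitosis list was -0.89, 0.41, 0.93, 0.65, 0.01 and 0.08. That of KO minus WT was -1.24, 0.33, 1.03, 0.28, -0.06 and -1.27, so KO also lay above WT at time point 2.

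Chaperones of the endoplasmic reticulum, which fold secreted and membrane proteins, lay on the higher side in RE without passing the test. Of 16 genes, 0 were called, 8 were higher at an unadjusted p under 0.05, and in 7 all RE animals lay above all WT animals, with a median of 0.27. Over all genes 3.97% were higher at that p, and 4.36% did not overlap with RE higher. Hyou1 was at 71.7, 78.8, 73.1 and 64.4 CPM in WT and at 131, 113, 106 and 93.25 CPM in RE (0.62 ± 0.16, adjusted p = 0.164). KO animals were at 108 to 118 CPM, within the RE range, and were called above WT (adjusted p = 0.0118) in a comparison of KO with WT that called 3.31% of genes. Hsp90b1 (0.37 ± 0.13), Pdia4 (0.35 ± 0.12), Calr (0.34 ± 0.14) and Canx (0.23 ± 0.08) did not overlap either, and RE animal 4 was the lowest RE animal for Hsp90b1, Pdia4 and Canx. The list's median RE minus WT difference over the 6 time points was -0.30, 0.27, 0.20, 0.11, -0.30 and -0.18, so its sign at time point 2 was not that of time points 1, 5 and 6. That of KO minus WT was -0.37, 0.30, 0.28, -0.09, -0.09 and -0.15.

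**Figure D5:**
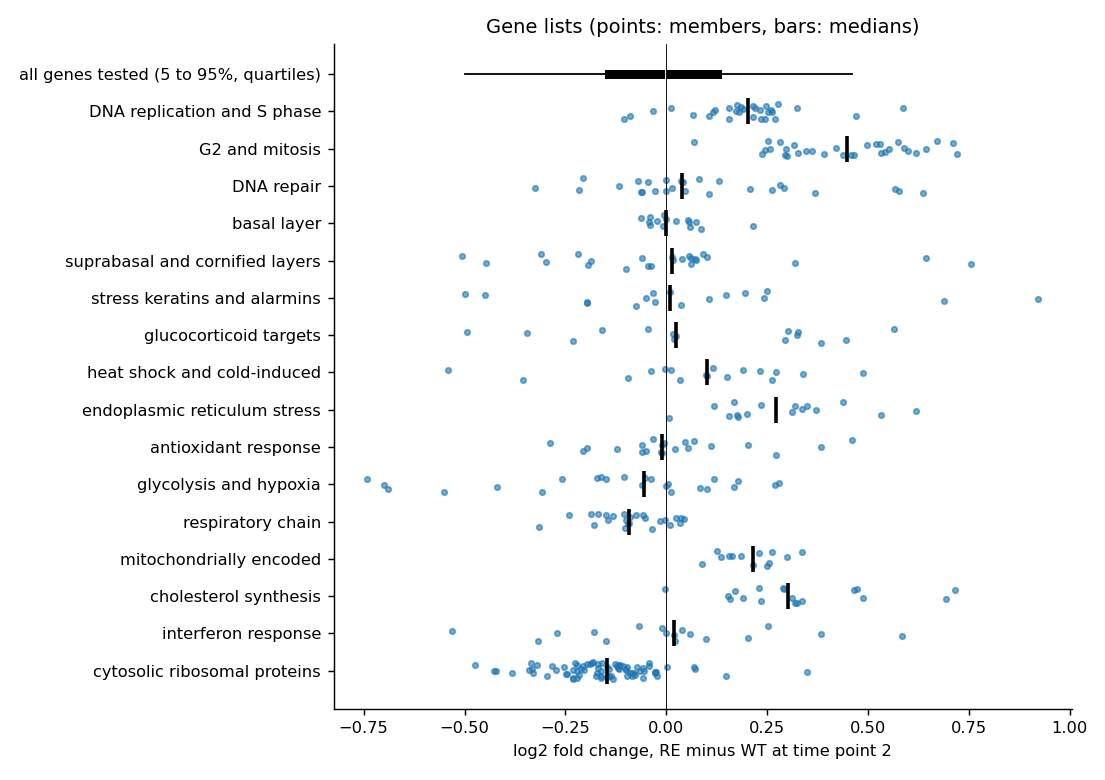
Log2 fold change of RE against WT at time point 2 for the members of the gene lists, with list medians, and a bar for all 18538 genes (quartiles and 5th to 95th percentiles). Mitosis genes (median 0.45) and endoplasmic reticulum genes (0.27) lie to the right and ribosomal protein genes (-0.15) to the left, and no member drawn is called.

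Other lists gave no called member. Of 12 tested inner root sheath and hair shaft genes, 4 were higher in RE at an unadjusted p under 0.05, against 3.97% of all genes. Their log2 differences ran from -0.72 to 3.51, with a median of 0.29. The 13 mitochondrially encoded genes had a median of 0.21, and that of KO minus WT was 0.24. In 4 of them all RE animals lay above all WT animals, as in 4.36% of all genes. Their reads are part of the mitochondrial share given above. The 18 cholesterol synthesis genes had a median of 0.30, and that of KO minus WT was 0.52. Cirbp, a cold-induced RNA-binding protein, was at 81.6 to 89.1 CPM in WT and 49.25 to 67.9 CPM in RE, a difference of -0.54 ± 0.24 that was not called (adjusted p = 0.618). Over 47 lists, 661 of 699 genes were tested and Cry1 was the 1 gene called higher, with none lower.

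The difference between RE and WT at time point 2 was then tested against the mean difference at the other 5 time points. Of 18538 genes, 5 were called (0.027%), 2 in the higher (0.0108%) and 3 in the lower direction (0.0162%), and 2475 (13.4%) met an unadjusted p under 0.05. Beside Cry1, Ipo11, a nuclear import receptor, was at 28.9, 29.6, 28.8 and 29.8 CPM in WT and at 36.2, 31.9, 35.7 and 33.2 CPM in RE. The contrast was 0.31 ± 0.06 (adjusted p = 0.0263), because RE means were higher than WT at time point 2 and lower at time points 1, 4, 5 and 6. The other 3 were ribosomal: Rpl31-ps14 (-0.63 ± 0.10, adjusted p = 3.24e-04), Rps27rt (-0.66 ± 0.13, adjusted p = 0.016) and Rpl18 (-0.44 ± 0.09, adjusted p = 0.016).

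The means of these 3 ribosomal genes are given over the time points as a description, since the contrast chose them. Rpl31-ps14 means at time points 1 to 6 were 24.2, 20.9, 28.0, 40.7, 36.2 and 42.5 CPM in RE and 26.0, 27.9, 34.3, 28.5, 27.5 and 29.3 CPM in WT. KO means were 26.0, 23.4, 26.2, 39.1, 36.8 and 45.0 CPM. For it RE and KO were both below WT at time points 2 and 3 and above it at time points 4 to 6. Rps27rt, a retrogene of Rps27, had RE means of 13.3, 11.6, 14.7, 23.9, 22.7 and 22.6 CPM with WT between 11.7 and 16.9 CPM. KO means of Rps27rt were 14.9, 11.8, 12.9, 26.4, 22.9 and 23.8 CPM. For it RE and KO were both above WT (12.2 CPM) at time point 1, below it at time points 2 and 3, and above it at time points 4 to 6. Rpl18 had RE means of 23.5, 21.4, 23.5, 29.3, 29.8 and 26.4 CPM and WT means of 20.9, 23.9, 22.1, 21.7, 21.9 and 22.0 CPM. KO means of Rpl18 were 22.3, 22.3, 25.3, 28.1, 29.1 and 28.8 CPM, so that RE and KO both lay below WT at time point 2 alone. The labels name no library batch, and the part of library preparation in these values was not tested.

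RE and KO carry the same stop allele and differ in Cre, and this comparison shares the RE libraries with the one above. Of 18538 genes, 99 were called (0.534%), 44 higher in RE (0.237%) and 55 lower (0.297%). Among clock genes 7 were higher (Arntl, Nr1d1, Nr1d2, Per3, Dbp, Tef, Ciart) and 3 lower, Cry1 and Npas2 among them. Beside the clock, and chosen after their values were seen, Cdc25b, a phosphatase that starts mitosis, was at 68.7 to 79.7 CPM in RE, 20.6 to 27.9 CPM in KO and 73.2 to 86.1 CPM in WT. RE exceeded KO by 1.59 ± 0.19 for it (adjusted p = 5.77e-08), and its difference from WT was -0.12 (adjusted p = 0.916). Ttc9 was at 22.0 to 32.2 CPM in RE, 79.4 to 93.5 CPM in KO and 22.7 to 29.3 CPM in WT (RE minus KO -1.70 ± 0.16, adjusted p = 6.86e-11). The RNA-binding protein gene Igf2bp2 (-2.02 ± 0.33) and the imprinted RNA H19 (-3.08 ± 0.55) were lower in RE than in KO, with RE values of 1.34 to 1.75 and 1.24 to 2.96 CPM that overlapped WT. Rsad1 took a middle place, at 15.1 to 19.1 CPM in WT, 10.3 to 15.6 CPM in RE and 3.74 to 4.40 CPM in KO, and its difference from WT was -0.55 (adjusted p = 0.53). Of the genes called against KO with a promoter in the RefSeq table, 4 of 31 that were higher in RE and 4 of 42 that were lower held an E-box (12.9% and 9.52%, against 9.34% of all genes with a promoter there).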

How the data were processed

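Total RNA of interfollicular epidermis was sequenced from 72 mice, 4 for each of 18 combinations of genotype and time point, and the authors deposited raw read counts per gene, 1 table a library, with no value of other samples. Per the submitters' processing notes the tools were Trimmomatic, TopHat2 2.1.1 and featureCounts on mm10 (GRCm38). Annotation version, strandedness and the rule for multi-mapping reads were not given in the sources used here. Of 46078 gene IDs, 45229 matched the reference annotation, which gave symbols, gene types and GRCm38 coordinates. Promoters came from RefSeq (GRCm38.p6).

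Groups came from the genotype and time point labels. One edgeR 4.0.16 model (R 4.3.3, robust quasi-likelihood) was fitted to all 72 libraries with 18 group means and 54 residual degrees of freedom, after TMM scaling (factors 0.866 to 1.11) and filterByExpr with a minimum count of 10, which left 18538 genes. The common dispersion was 0.0343. P-values were two-sided and adjusted (Benjamini-Hochberg) over all genes tested, and called means an adjusted p under 0.05. Log2 CPM used a prior count of 2, and the median fold change of all genes, RE minus WT, was 0. The scripts were tested on simulated data. Alternatives were DESeq2 1.42.0, limma 3.58.1 voom, other scaling, no filter, fewer libraries, a replicate block and leaving out each animal. No pair of libraries within WT, RE or KO at time point 2 agreed within sampling noise (chi-square per gene 10.1 to 51.5). The labels count animals per group, so replicates are taken as separate animals. The genes named are the clock genes, the called genes that did not overlap by size of change, the called list members and the 8 leading genes of the contrast between time points, and others are said to be chosen after their values were seen. The libraries compared and the lists were chosen with earlier results of these data known. Some genes that the rule names are not reported here.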

Additional observations from a re-analysis of the deposited data

Results flagged for a closer look

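Of 92 groups of 4 animals examined over the genes named, 3 held an animal far from the other 3, and chance gives about 1 in 20 such groups. Nr1d1, the REV-ERB alpha gene, was at 304 CPM in RE animal 4 against 99.2 to 131 CPM in RE animals 1 to 3. Bhlhe41 was at 3.4 CPM in the same animal against 2.2 to 2.3 CPM. Per2 was at 81.4 CPM in KO animal 4 against 26.8 to 33.1 CPM in the other KO animals.

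In 5 genes the RE minus WT difference at time point 2 differed from the mean of the other 5 time points by the test of that difference (edgeR, adjusted p under 0.05). On the log2 scale the contrast was 1.54 for Cry1 and 0.31 for Ipo11, which lay higher at time point 2. It was -0.63 for Rpl31-ps14, -0.66 for Rps27rt and -0.44 for Rpl18, which lay lower. Of the 8 runs that left out 1 animal, Cry1 and Rpl31-ps14 were called in 8, Rps27rt and Rpl18 in 4, and Ipo11 in 2.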

How the results depend on the processing

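The 12 calls of RE against WT at time point 2 became 30 with the DESeq2 test (7 higher, 23 lower), 25 with the replicate block, 1 with protein-coding genes only (added after seeing the data) and 0 with the 8 libraries alone, without or with the block (2447 and 2798 genes at an unadjusted p under 0.05). They were 2 to 11 without 1 animal: 6, 11, 5 and 4 without WT animals 1 to 4, and 10, 2, 6 and 8 without RE animals 1 to 4, of which 7 of the last 8 were among the 12. Rps15a-ps4 and Gm2871 were called without each animal in turn, and Cry1 and Gm12013 without each except RE animal 2. Limma voom did not call Cry1 (1.18, adjusted p = 0.0562). WT and RE animals of the same number correlated at 0.166, 0.384, -0.011 and 0.082, and those of different numbers at -0.398 to 0.422. These values do not settle whether the numbers mark pairs. The main fit takes no pairs, and the fit with the replicate block is given beside it. The contrast of time point 2 with the others gave 5 calls, 11 with DESeq2 size factors, 3 with no filter, 142 with the DESeq2 test, 101 with the block, 52 without time point 6, 13 with 48 libraries and 2 to 8 without 1 animal. RE against KO at time point 2 gave 99, 164 with the block, 203 without time point 6 and 43 to 78 without 1 animal. KO against WT at time point 2 gave 613, 311 with no filter, 1039 with the block, 1050 without time point 6 and 255 to 534 without 1 animal. Called list members numbered 1, 3 with DESeq2, 4 with the block, 2 without time point 6, 0 with voom and with 8 libraries, without or with the block, and 0 to 2 without 1 animal. Clock genes with the larger SD in RE numbered 10, and 5 to 12 without 1 animal. The share of promoters with an E-box was 8.00% from first start sites, also added later. Signs turned only for uncalled genes and only where 1 animal was left out. Over those runs the log2 difference from WT ranged from -0.12 to 0.19 for Per3, -0.25 to 0.0100 for Cry2, -0.21 to 0.085 for Hlf and -0.42 to 0.24 for Bhlhe40. That from KO ranged from -0.053 to 0.504 for Per1, -0.66 to 0.062 for Per2, -0.16 to 0.15 for Rora and -0.35 to 0.19 for Bhlhe40. Of 955 values for single genes, 820 kept direction and call, 97 lost and 18 gained the call, and 20 turned. The cause of these changes was not tested. Depth limits low genes most: Gm2871 was near 1 CPM in RE.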

Other observations

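Further genes called between RE and KO, chosen after their values were seen, are given with their values in all groups. Agpat3, an enzyme of phospholipid synthesis, was at 99.2 to 129 CPM in RE, 99.1 to 127 CPM in WT and 200 to 221 CPM in KO (RE minus KO log2 difference -0.86 ± 0.13, edgeR, adjusted p = 3.27e-05). E2f2, a cell cycle transcription factor, was at 18.1 to 24.7 CPM in RE, 15.6 to 20.9 CPM in WT and 32.9 to 44.5 CPM in KO (-0.87 ± 0.19, adjusted p = 0.00786). F3, the tissue factor that starts blood clotting, was at 5.09 to 9.25 CPM in RE, 5.59 to 6.72 CPM in WT and 23.2 to 29.9 CPM in KO (-1.81 ± 0.46, adjusted p = 0.0466). Krt2, a keratin of upper epidermal layers, was at 6.77 to 11.1 CPM in RE, 5.08 to 7.42 CPM in WT and 1.56 to 3.21 CPM in KO (1.96 ± 0.48, adjusted p = 0.0338). None of the 4 was called between RE and WT, and their differences from WT were 0.05, 0.25, 0.29 and 0.64. The KO libraries are described for these genes only as values beside RE.

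In the contrast of time point 2 with the other 5 time points, the pseudogene Gm15899 (0.60 ± 0.13) and Rps15a-ps4 (-0.52 ± 0.11) missed the threshold, each with an adjusted p of 0.0667. The medians of the mitochondrially encoded genes, RE minus WT, were 0.21 at time point 2 and between -0.58 and -0.06 at the other 5 time points. Those of the DNA replication list were 0.27, 0.18, -0.54, -0.04, -0.58 and 0.17 over time points 1 to 6. These medians are descriptions with no test.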
